A study of Mus musculus with 2 samples.

Results

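Tendon and ligament cells with Tnmd were described in 2 single-cell libraries of mouse knee. The cells were chosen by their own transcripts: at least 2 unique molecular identifiers (UMIs, tags that count captured RNA molecules) of Tnmd, at least 1000 CPM (UMIs of a gene per 1e6 UMIs of the cell) of Col1a1, under 2000 CPM of Col2a1 and under 20000 CPM of Prg4, among barcodes that passed limits of 500 detected genes or more and no more than 10% of UMIs from mitochondrial genes. They numbered 254 of the 19881 barcodes kept, 149 of 9889 in the DMM library and 105 of 9992 in the sham library. The DMM library came from 3 wild-type mice after destabilisation of the medial meniscus, an operation that leads to osteoarthritis, and the sham library from 3 wild-type mice after sham surgery. In each group the mice were pooled into 1 library, so no test between groups was possible. The labels give the tissue as knee joint cartilage and the cells as superficial cells, digested with collagenase and dispase, with soft tissue taken off the bones beforehand. Live cells without CD45, Ter119 and CD31 on their surface were sorted, which removes most blood and endothelial cells. Intervals in brackets (95%) allow for counting error alone and leave out any spread between mice or preparations. Those of UMI levels and ratios count each UMI as independent. They thus also leave out spread between cells, and are too narrow where few cells hold most UMIs. Levels are not compared between genes.

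Tendons and ligaments are ropes of collagen I fibrils laid down by rows of specialised fibroblasts. Their precursors depend on the transcription factors Scx and Mkx, and mature cells carry tenomodulin (Tnmd), a membrane protein widely used to mark this lineage. Between the fibrils lie small leucine-rich proteoglycans such as fibromodulin (Fmod) and keratocan (Kera), which govern fibril thickness, and glycoproteins such as thrombospondin 4 (Thbs4), cartilage oligomeric matrix protein (Comp) and Cilp2. At the knee these cells border on synovium, fibrocartilage and bone, where the tissue joins the skeleton.

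The promoter windows of Tnmd and of both other marker genes, Fmod and Thbs4, are shown because these genes name the cells, and Scx binds E-boxes. The windows hold 250 bases before and 50 after each gene's start, from RefSeq on GRCm38.p6. Capitals mark E-boxes (CANNTG, which reads alike on both strands), and Tnmd had none, Fmod 1 and Thbs4 2. The windows lie at chrX:133850758-133851057 on the plus strand for Tnmd, chr1:134037004-134037303 on the plus strand for Fmod and chr13:92794769-92795068 on the minus strand for Thbs4.
Tnmd: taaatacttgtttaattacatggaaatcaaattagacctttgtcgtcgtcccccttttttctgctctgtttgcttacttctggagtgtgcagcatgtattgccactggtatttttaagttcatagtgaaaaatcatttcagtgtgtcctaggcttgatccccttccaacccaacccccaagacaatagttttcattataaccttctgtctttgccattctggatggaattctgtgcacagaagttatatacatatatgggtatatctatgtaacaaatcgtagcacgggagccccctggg
Fmod: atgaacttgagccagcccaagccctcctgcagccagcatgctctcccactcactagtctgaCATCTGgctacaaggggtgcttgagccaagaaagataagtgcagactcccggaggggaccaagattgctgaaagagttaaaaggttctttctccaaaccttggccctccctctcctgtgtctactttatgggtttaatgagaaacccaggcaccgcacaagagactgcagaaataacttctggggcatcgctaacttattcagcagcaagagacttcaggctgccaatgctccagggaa
Thbs4: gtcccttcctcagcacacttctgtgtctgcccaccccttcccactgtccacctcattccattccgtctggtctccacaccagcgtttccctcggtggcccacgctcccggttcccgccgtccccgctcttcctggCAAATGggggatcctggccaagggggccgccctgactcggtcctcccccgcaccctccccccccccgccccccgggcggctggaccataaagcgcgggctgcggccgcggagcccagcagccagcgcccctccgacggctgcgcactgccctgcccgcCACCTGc
Of 32851 mouse promoter windows of this length, 72.3% held at least 1 E-box. The E-box of Fmod is CAGATG read on the other strand, which 17.2% of the windows held. These matches describe letters, not binding.

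The cells took 1.51% [1.28, 1.77] of the kept barcodes of the DMM library and 1.05% [0.860, 1.27] of those of the sham library, a ratio of 1.43 [1.11, 1.86]. Within cells that passed the same collagen and lubricin limits whatever their Tnmd count (the Col1a1 gate), the shares were 4.57% [3.88, 5.34] of 3260 cells in DMM and 4.77% [3.92, 5.75] of 2200 cells in sham. The gate as a whole therefore took more of the DMM library, and the share of Tnmd cells inside it was within counting error of sham. The cells held a median of 6990 UMIs and 2603 genes in DMM and of 7287 UMIs and 2770 genes in sham. No Tnmd cell shared its barcode with the other library, where 24 barcodes occurred in both.

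Tnmd itself chose the cells, and its values are a description. It averaged 544 CPM in the DMM cells and 507 CPM in the sham cells, with a median of 3 UMIs per cell in each library and at most 21 in DMM and 24 in sham. Just inside the limit, 49 DMM and 41 sham cells held exactly 2 Tnmd UMIs. Just outside it, 85 DMM and 57 sham cells of the gate held 1 UMI. Another 19 DMM and 13 sham barcodes had at least 2 Tnmd UMIs but failed a limit on Col1a1, Col2a1 or Prg4. Haemoglobin cells, red cell precursors that should lack the gene and so show what free RNA in the droplets adds, held 0.390 CPM in DMM and 1.00 CPM in sham.

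Both other genes that name the cells, Fmod and Thbs4, were detected in most of them. Fmod was detected in 73.2% [65.3, 80.1] of DMM cells and 73.3% [63.8, 81.5] of sham cells, and in 7.56% and 7.64% of haemoglobin cells, whose median depths were 6425 and 5920.5 UMIs. Thbs4 was detected in 85.2% [78.5, 90.5] of DMM cells and 85.7% [77.5, 91.8] of sham cells, and in 3.64% and 4.83% of haemoglobin cells. With every cell thinned to 2000 UMIs, which left out 1 DMM cell, the shares were 64.2% and 65.7% for Fmod and 71.6% and 78.1% for Thbs4. Fmod and Thbs4 occurred together in 103 of 149 DMM cells and 76 of 105 sham cells, and neither in 16 and 14. Scx or Mkx was detected in fewer, 59 of 149 DMM cells and 64 of 105 sham cells, and Kera in 34 and 29.

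Some markers of other cells of the joint were at 0, but each of the lists that follow also had members with UMIs. No UMI was found in either library of the mural genes Rgs5 and Myh11, the synovial lining gene Clic5, the muscle genes Pax7, Myf5, Myod1 and Myh4, the Schwann cell gene Sox10, the endothelial genes Cdh5 and Kdr, or the macrophage genes C1qa and C1qc. The 7 mural markers, 5 of them found, summed to 106 CPM in DMM and 94.4 CPM in sham, and the 7 macrophage markers, 4 and 3 of them found, to 11.7 and 15.9 CPM. The 9 chondrocyte markers summed to 529 CPM in DMM and 574 CPM in sham Tnmd cells, against 672 and 556 CPM in cells of the gate without Tnmd, which met the same limits on Col2a1 and Prg4. The 7 superficial zone markers summed to 834 and 944 CPM (Gdf5 at 0; Prg4, a gene of the rule, is on both this list and the next), the 5 synovial lining markers to 750 and 877 CPM, the 6 adventitial markers to 694 and 632 CPM and the 6 marrow stroma markers to 740 and 702 CPM. In cells of the gate without Tnmd, the superficial zone sums were 1756 and 1750 CPM and the synovial lining sums 1729 and 1778 CPM. The adventitial sums there were 1231 and 1610 CPM. Marrow stroma markers summed to 489 and 990 CPM there, so they were higher in Tnmd cells in DMM alone. The 6 neutrophil markers summed to 29.8 CPM in DMM and 4.55 CPM in sham Tnmd cells, against 3.79 and 44.0 CPM, with up to 9129 CPM in a DMM Tnmd cell. The 8 osteoblast markers summed to 615 CPM in DMM and 1211 CPM in sham, with Dmp1 at 0 in DMM, against 5947 and 4766 CPM in cells of the gate without Tnmd. The 7 markers of red cells, all found in sham and 6 of them in DMM, summed to 301 and 1342 CPM, with up to 39058 CPM in 1 sham cell and 2176 CPM in DMM. Their part in the results below was not tested. Scrublet, a caller of droplets that hold 2 cells, marked 1 Tnmd cell in each library.

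Set against cells of the same gate without a Tnmd UMI, the Tnmd cells were marked by Sfrp2, by keratocan and osteoglycin, and by microfibril and matrix genes, whereas bone genes were far lower. These other cells numbered 3026 in DMM and 2038 in sham, and both libraries gave the comparison separately. Of 3395 genes with at least 50 CPM in the higher set of each library, 67 (1.97%) were at least 2-fold higher in Tnmd cells in both libraries and 56 (1.65%) at least 2-fold lower. The plot of tendon and ligament genes by set of cells gives the levels that follow.

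**Figure D1:**
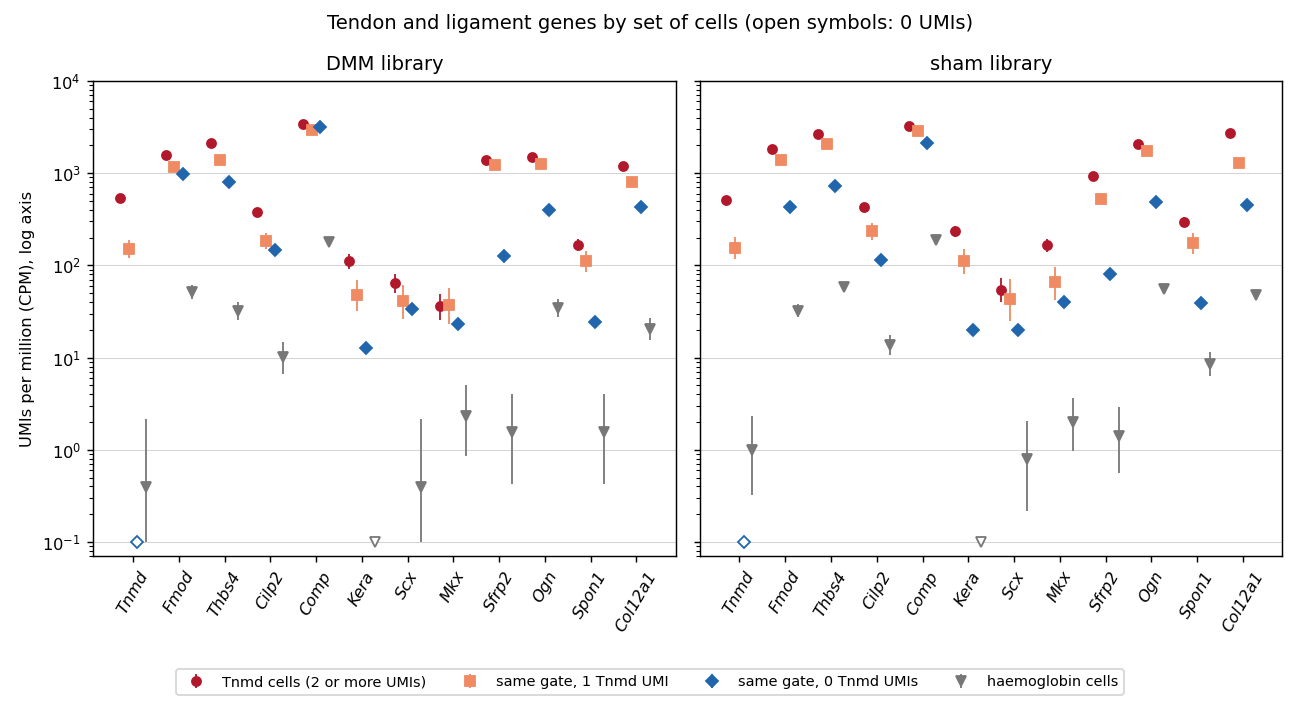
CPM (log axis) of 12 tendon and ligament genes in Tnmd cells, cells of the same Col1a1 gate with 1 or 0 Tnmd UMIs, and haemoglobin cells, for the DMM library (left) and the sham library (right), with Poisson 95% intervals. Sfrp2 stands at 1380 and 922 CPM in Tnmd cells and at 127 and 81.5 CPM in cells with 0 Tnmd UMIs, while Comp differs by under 2-fold between these sets.

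Among tendon matrix genes, Kera was the most marked. It stood at 111 CPM in DMM Tnmd cells against 12.6 CPM in the other DMM cells of the gate, and at 234 CPM in sham Tnmd cells against 19.9 CPM, log2 ratios of 3.14 [2.82, 3.45] and 3.55 [3.29, 3.81]. It was detected in 34 DMM cells and 29 sham cells, so most Tnmd cells showed none. Thbs4 stood at 2138 and 2645 CPM in DMM and sham Tnmd cells, against 804 and 723 CPM in the other cells, log2 ratios of 1.41 and 1.87. Cilp2, a relative of cartilage intermediate layer protein, gave 1.36 and 1.88. Col12a1, a collagen that decorates collagen I fibrils, gave 1.48 [1.39, 1.56] in DMM and 2.60 [2.53, 2.67] in sham. Fmod was also higher, at 1591 and 1818 CPM against 988 and 425 CPM, but passed 2-fold in sham alone (log2 0.69 in DMM and 2.10 in sham). Comp was near the other cells of the gate, at 3429 and 3224 CPM against 3162 and 2111 CPM.

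Both tendon factors were higher in Tnmd cells, and Scx was detected in 40 DMM and 28 sham cells, and in 1 of 357 and 4 of 746 haemoglobin cells. Scx stood at 64.1 CPM in DMM and 54.6 CPM in sham Tnmd cells, against 34.0 and 19.9 CPM in the other cells, log2 ratios of 0.91 [0.54, 1.27] and 1.45 [0.98, 1.90]. Mkx stood at 36.1 and 165 CPM against 23.2 and 40.3 CPM, log2 ratios of 0.64 [0.13, 1.10] and 2.03 [1.76, 2.30]. Foxp2, a forkhead factor, stood at 101 and 338 CPM against 29.9 and 69.2 CPM, and Foxd1, another forkhead factor, was lower, with log2 ratios of -2.67 and -3.30. Sox5, which works with Sox9 in cartilage, was lower, at 170 and 175 CPM against 393 and 474 CPM. Over 48 factors of tendon and limb, 27 had enough counts, of which 1 was 2-fold higher and 1 lower. Of all genes tested, 1.97% were higher and 1.65% lower.

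Of the 17 genes listed as tendon identity, Tnmd was not counted because it chose the cells, and 13 had enough counts. Thbs4, Kera, Cilp2 and Col12a1 were 2-fold higher in both libraries and none was lower. The median log2 ratio was 0.69 in DMM and 0.85 in sham, against -0.03 and -0.05 over all genes tested. The list was chosen with earlier results of these data known and holds Thbs4, which helps name the cells, so its median is a description. Other listed genes went the other way: Clec3b, the plasma protein tetranectin, gave -0.41 and -1.14, and Htra3, a secreted protease, -0.76 and -0.78. Of 17 fibrillar and fibril-associated collagens, Col8a1 and Col12a1 were 2-fold higher and Col11a2 lower. Col1a2 gave 0.11 and 0.08 and Col3a1 0.25 in DMM and -0.18 in sham. Col5a1 stood at 469 and 446 CPM against 478 and 446 CPM.

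Secreted signals and matrix glycoproteins held the highest ratios. Sfrp2, a secreted frizzled-related protein that modulates WNT signals, was 10.9-fold [10.2, 11.6] higher in DMM and 11.3-fold [10.3, 12.4] higher in sham. It was found in 72 of 149 DMM and 52 of 105 sham Tnmd cells, with up to 16460 CPM in a DMM cell and 8843 CPM in a sham cell, and in 0.840% and 0.670% of haemoglobin cells. Its relative Sfrp4 was lower, at 158 and 176 CPM against 487 and 655 CPM, as was the WNT inhibitor Wif1, at 62.3 and 62.5 CPM against 172 and 136 CPM. Spon1 (spondin 1) gave log2 ratios of 2.77 and 2.93, and Mfap4, a glycoprotein of elastic microfibrils, 2.67 and 3.16. Ogn (osteoglycin) was detected in 140 DMM and 102 sham cells and stood at 1515 and 2060 CPM against 398 and 484 CPM. Penk, the precursor of enkephalin peptides, gave 2.39 and 2.23, and Matn4 (matrilin 4) 2.49 and 2.09.

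Several further gene groups held members on each side. Of 25 tested thrombospondins, tenascins and matrix glycoproteins, 6 were higher, among them Thbs2 (1.12 in DMM and 1.75 in sham) and Smoc2 (1.34 and 2.27), and Fn1, fibronectin, was lower (-1.55 and -2.11). Of 22 mechanosensing and YAP genes, 3 were higher: Piezo2, a stretch-gated ion channel (1.32 and 1.72), Itgbl1 (1.44 and 2.34) and Ccn3, a matricellular protein (1.36 and 1.89). Mmp3 (stromelysin 1) was the 1 of 23 proteases and inhibitors that passed, at 731 and 959 CPM against 275 and 200 CPM. The genes of sheath and paratenon, the loose tissue around tendon, leaned lower, with 3 of 11 past 2-fold: Tppp3 (-1.96 and -2.05), Cd34 (-1.92 and -2.04) and Cd55, a complement regulator (-1.32 and -2.60). The cyclin-dependent kinase inhibitor Cdkn1c (1.80 and 2.00) was higher, and only 2 cell cycle genes had enough counts to be tested.

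Bone genes were among the lowest. Bglap, which encodes osteocalcin, stood at 19.0 CPM in DMM and 37.5 CPM in sham Tnmd cells, against 1576 and 1577 CPM in the other cells of the gate, log2 ratios of -6.38 [-7.07, -5.77] and -5.39 [-5.93, -4.90]. Car3 (carbonic anhydrase 3) had no UMI in Tnmd cells and 59.9 and 150 CPM in the other cells, at least 22.1-fold lower in DMM and 44.1-fold in sham with 3 counts per library taken as the limit. Tnfrsf11b (osteoprotegerin, a decoy receptor that restrains osteoclasts) gave -3.10 and -3.16, Smpd3, a sphingomyelinase needed for bone mineral, -3.87 and -2.87 (-6.54 in sham without 1 cell that held 12 of its 13 UMIs), and the cartilage collagen Col11a2 -2.10 and -2.02. Alpl, the alkaline phosphatase of mineralising cells, and Spp1 (osteopontin) were lower too, at -3.48 and -1.82 and at -3.33 and -1.61. Without the top cell, Alpl gave -2.67 in sham and Bglap -7.06 in DMM. The other cells of the gate had higher sums of osteoblast markers, as given above, but those sums include Bglap and Alpl themselves. The part of osteoblasts among the other cells in these ratios was not tested. Cytl1, a secreted protein, counted as higher (1.59 and 1.14), but 1 cell held 72.8% of its UMIs in DMM and 88.3% in sham. Without those cells Cytl1 gave -0.27 and -1.92, and haemoglobin cells carried it about as often (192 of 357 DMM and 464 of 746 sham cells) as Tnmd cells (76 of 149 and 66 of 105).

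**Figure D2:**
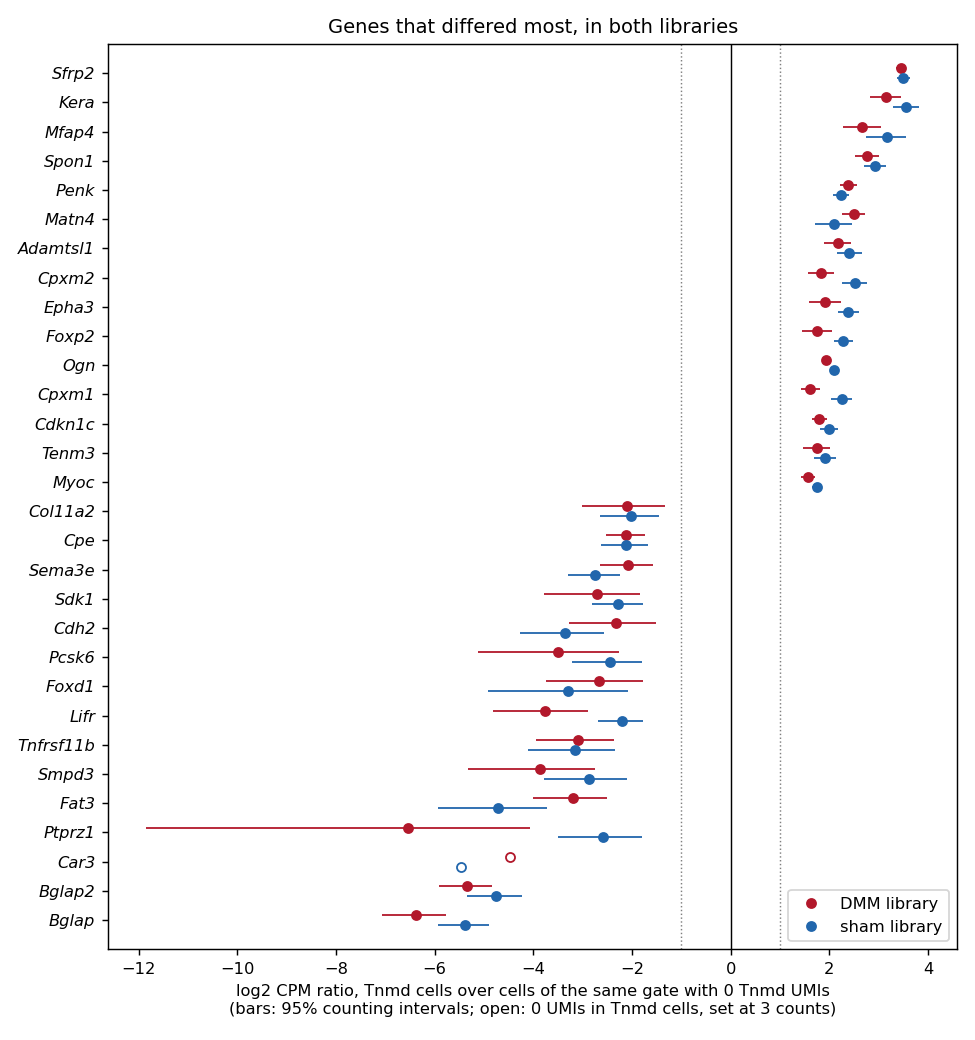
Log2 CPM ratio of Tnmd cells over cells of the same Col1a1 gate with 0 Tnmd UMIs for the 15 highest and 15 lowest genes, in DMM (red) and sham (blue), with 95% counting intervals and dotted lines at 2-fold. Sfrp2, Kera, Mfap4 and Spon1 lie highest in both libraries, Bglap and Bglap2 lie near the low end in both, and Car3 had 0 UMIs in Tnmd cells.

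A set close to the Tnmd cells was that of gate cells with at least 2 UMIs of Angptl7, a secreted angiopoietin-like protein, and under 2 of Tnmd (388 in DMM and 310 in sham). Of the Tnmd cells themselves, 55 in DMM and 48 in sham passed the same Angptl7 limit. Fmod stood at 1591 CPM in DMM and 1818 CPM in sham Tnmd cells and at 1868 and 1391 CPM in these Angptl7 cells. Scx stood at 64.1 and 54.6 CPM in Tnmd cells and at 75.6 and 60.8 CPM in Angptl7 cells. Kera (111 and 234 CPM, against 31.2 and 91.9 CPM), Sfrp2 (1380 and 922 CPM, against 281 and 170 CPM) and Spon1 (166 and 298 CPM, against 29.5 and 57.1 CPM) were higher in Tnmd cells in each library. Comp was lower in them, at 3429 and 3224 CPM against 5993 and 5478 CPM. Cells with 1 Tnmd UMI lay between: Thbs4 stood at 1377 and 2095 CPM and Sfrp2 at 1216 and 528 CPM there. Adventitial cells with Pi16 had no Kera UMI in either library, and 232 of them were found.

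Fmod, Thbs4 and Comp stood at similar levels in DMM and sham Tnmd cells, while Mkx, Coch, Nppc and Ccn3 were among the genes lower in DMM and Chil1, Ccl7, Cxcl1 and Lgals3 among those higher. Of 3384 genes with at least 100 UMIs over both libraries, 29 (0.857%) were at least 2-fold higher in DMM and 90 (2.66%) at least 2-fold lower. The genes that chose the cells, Tnmd, Col1a1, Col2a1 and Prg4, were among the 3384 and were not left out of the lists below. With median-of-ratios scaling the counts were 49 higher and 70 lower. The median log2 ratio of all genes tested was -0.08 in Tnmd cells and -0.15 in cells of the gate without Tnmd, whose ratios are given beside. With 1 library per group, the ratios compare these 2 preparations. The plot of DMM against sham shows the genes named by size, which were chosen to have intervals that leave out equal levels.

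Of 15 tested genes of tendon identity, which here include Tnmd although it chose the cells, none was 2-fold higher in DMM. Mkx, Kera, Col12a1 and Ptgis were lower. Fmod gave a log2 ratio of -0.19 [-0.29, -0.09] and Thbs4 -0.31 [-0.39, -0.22]. Comp gave 0.09 [0.02, 0.16], and -0.078 with the trend on gene length, described below, taken out. Scx gave 0.23 [-0.32, 0.79], an interval that holds 0, and its sign differed between alternatives. Mkx stood at 36.1 CPM in DMM cells and 165 CPM in sham cells, a log2 ratio of -2.19 [-2.73, -1.68]. It was detected in 30 of 149 DMM cells against 57 of 105 sham cells, and in 4.73% and 20.0% after thinning. Of the haemoglobin cells, 1.12% and 0.804% held Mkx. In cells of the gate without Tnmd, Mkx gave -0.79. Kera gave -1.08 [-1.41, -0.75], Col12a1 -1.18 [-1.28, -1.09] and Ptgis, the synthase of prostacyclin, -1.28 [-1.66, -0.90].

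Of the genes tested, Coch had the lowest ratio. It encodes cochlin, a secreted matrix protein known from the inner ear, and stood at 20.8 CPM in DMM cells and 578 CPM in sham cells, a log2 ratio of -4.80 [-5.47, -4.20]. In DMM 1 cell held all 23 UMIs, whereas in sham 20 cells held 508 UMIs, with a median of 17 UMIs among those cells. In the other cells of the gate the ratio was -2.98, at 3.10 CPM in DMM and 24.5 CPM in sham, and haemoglobin cells held 0 and 5.82 CPM. The 20 sham cells with Coch were chosen after their values were seen. All 20 carried Fmod, Thbs4, Cilp2, Comp and Chad (chondroadherin), 16 carried Mkx, 14 Kera, 19 Omd (osteomodulin, a proteoglycan of bone and tendon insertions), 12 Sparcl1 and 17 Ibsp, the gene of bone sialoprotein. Among the 85 sham Tnmd cells without Coch, 57 carried Fmod, 70 Thbs4, 50 Cilp2, 84 Comp, 54 Chad, 41 Mkx, 15 Kera, 36 Omd, 12 Sparcl1 and 20 Ibsp. Their median depths were 8777.5 and 7181 UMIs, and at least 2 Ibsp UMIs were held by 13 of the 20 and 14 of the 85. Ibsp also reached 9.80% of DMM and 10.6% of sham haemoglobin cells. Without its top cell in each library Coch had 0 UMIs in DMM, and with 3 counts taken as the limit its log2 ratio was -7.51 or lower. Leaving out all Tnmd cells with an Ibsp UMI (47 in DMM and 37 in sham), an alternative chosen after seeing the data, gave -1.73 for Coch, -1.06 for Sparcl1, 0.31 for Cilp2, 0.21 for Kera and 0.012 for Thbs4. Mkx was -1.92 without them.

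Signalling and matrix genes lower in DMM spanned several families. Nppc, the precursor of C-type natriuretic peptide, stood at 34.3 CPM in DMM cells and 218 CPM in sham cells (-2.67 [-3.21, -2.16], and -1.27 in the other cells). Sparcl1 gave -2.63 [-3.38, -1.94], Ccn3 -1.99 [-2.24, -1.74], Dio2, the deiodinase that activates thyroid hormone, -1.88 [-2.20, -1.57], and the oestrogen receptor Esr1 -1.83 [-2.32, -1.35]. The other cells gave -0.81 for Sparcl1, -1.46 for Ccn3, -0.49 for Dio2 and -0.86 for Esr1, the same direction at a smaller size. Angptl7 gave -1.42 [-1.56, -1.28] and the insulin-like growth factor binding proteins Igfbp5 and Igfbp2 each -1.49. Igfbp2 stood at 48.7 CPM in DMM and 136 CPM in sham Tnmd cells but at 6.48 and 3.26 CPM in the other cells of the gate. Lgr5, a receptor that amplifies WNT signals, stood at 23.5 CPM in DMM and 85.3 CPM in sham Tnmd cells and at 4.15 and 3.52 CPM in the other cells. Without the top cell, Lgr5 stood at 45.1 CPM in sham and Igfbp2 at 27.3 CPM in DMM. Chad gave -1.33 and Omd -1.19. Ndnf, a secreted neuron-derived factor, stood at 56.9 CPM in DMM and 188 CPM in sham (-1.72 [-2.16, -1.30], or -0.81 with 1 Tnmd UMI as the limit), but at 66.9 and 56.5 CPM in the other cells, a ratio of 0.24.

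Among genes higher in DMM, Chil1 (a chitinase-like protein of inflamed joints) stood at 191 CPM in DMM cells and 46.6 CPM in sham cells, 4.10-fold [2.93, 5.88] higher, and was found in 27 and 9 cells. The chemokines Ccl7 and Cxcl1, which draw monocytes and neutrophils, stood at 181 and 326 CPM in DMM cells against 45.5 and 108 CPM in sham cells, log2 ratios of 1.99 [1.49, 2.52] and 1.59 [1.26, 1.93]. In the other cells of the gate both went the opposite way, at 39.9 and 164 CPM in DMM against 387 and 469 CPM in sham (-3.28 and -1.51). A few cells carried these genes. Ccl7 was found in 19 DMM and 10 sham cells, and 1 cell held 35% of its UMIs in DMM and 65% in sham, without which the ratio was 2.87. Cxcl1 was found in 50 DMM and 25 sham cells. Of the haemoglobin cells, 1.96% in DMM and 3.75% in sham held Cxcl1 and 2.52% and 1.61% held Chil1. With 1 Tnmd UMI as the limit the ratios were 1.15 for Chil1, 1.03 for Ccl7 and 0.88 for Cxcl1. Ccl2 and Il6 had too few UMIs for the count, and gave -0.09 [-0.80, 0.64] and -1.53 [-2.55, -0.58] in Tnmd cells. Lgals3 (galectin 3) was found in 124 DMM and 65 sham cells, and in 11.5% and 10.9% of haemoglobin cells, at 786 and 306 CPM (1.36 [1.16, 1.56], and 0.81 in the other cells). Hmox1, the haem oxygenase of the oxidative stress response, gave 1.16 [0.80, 1.54], or 0.80 without its top cells, and Sulf2, an enzyme that trims heparan sulfate, 1.55 [1.02, 2.11].

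**Figure D3:**
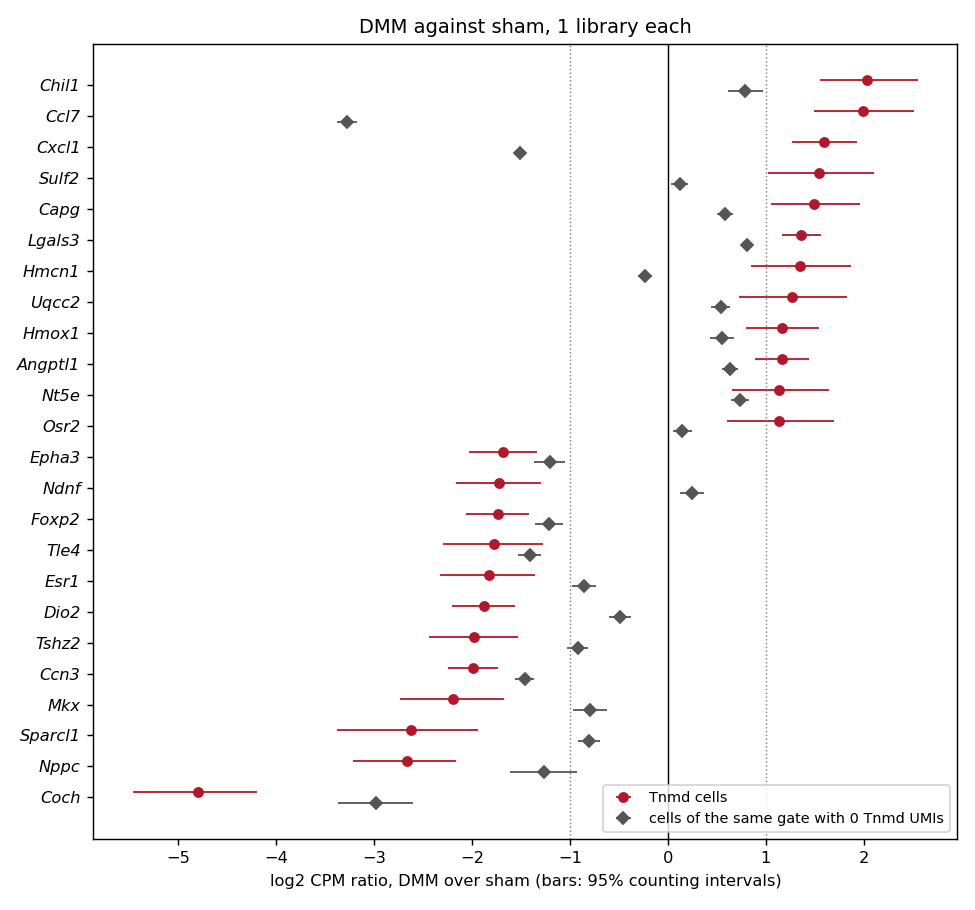
Log2 CPM ratio of DMM over sham in Tnmd cells (red circles) and in cells of the same gate with 0 Tnmd UMIs (grey diamonds) for the 12 highest and 12 lowest genes, with 95% counting intervals and dotted lines at 2-fold. Coch lies lowest in Tnmd cells, Ccl7 lies lowest of these genes in the other cells, and Ccl7, Cxcl1, Hmcn1 and Ndnf lie on opposite sides of 0.

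Of 18 cytokine, chemokine and prostaglandin genes, Cxcl1 and Ccl7 were 2-fold higher in DMM and 2 lower, among them Ptgis, 8 lay above 0 and 10 below, and the median was -0.08. None of 25 immediate early and heat shock genes passed 2-fold. Over all genes tested 0.857% were higher and 2.66% lower, so most lists of this size would hold few such genes or none. Of 17 fibrillar and fibril-associated collagens none was 2-fold higher in DMM and Col11a1 and Col12a1 were lower, and Col3a1 gave 0.94 [0.89, 0.99], at 9500 CPM in DMM and 4964 CPM in sham. Of 11 proteoglycans, Kera, Omd and Chad were lower. The 16 vessel and nerve cues held 2 higher genes, Angptl1 (1.16) and Angptl4 (1.01), and 5 lower ones, among them the lymphatic growth factor Vegfc (-1.35) and the axon guides Sema3c (-1.19) and Slit2 (-1.01). Their median was -0.40 in Tnmd cells and -0.39 in the other cells, and alternatives gave -0.55 to -0.026 in Tnmd cells. All 27 respiratory chain genes tested lay above 0, against 1463 of all 3384 genes, and none passed 2-fold. The respiratory chain median was 0.41 in Tnmd cells and 0.52 in the other cells. Alternatives gave 0.19 to 0.50 in Tnmd cells, 1 of them with the trend on gene length, described below, taken out. The part of gene length in this median was not tested further. The WNT list (11 genes, none higher and 2 lower) and the mechanosensing list (22 genes, none higher and 2 lower) had medians of -0.24 and -0.25.

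**Figure D4:**
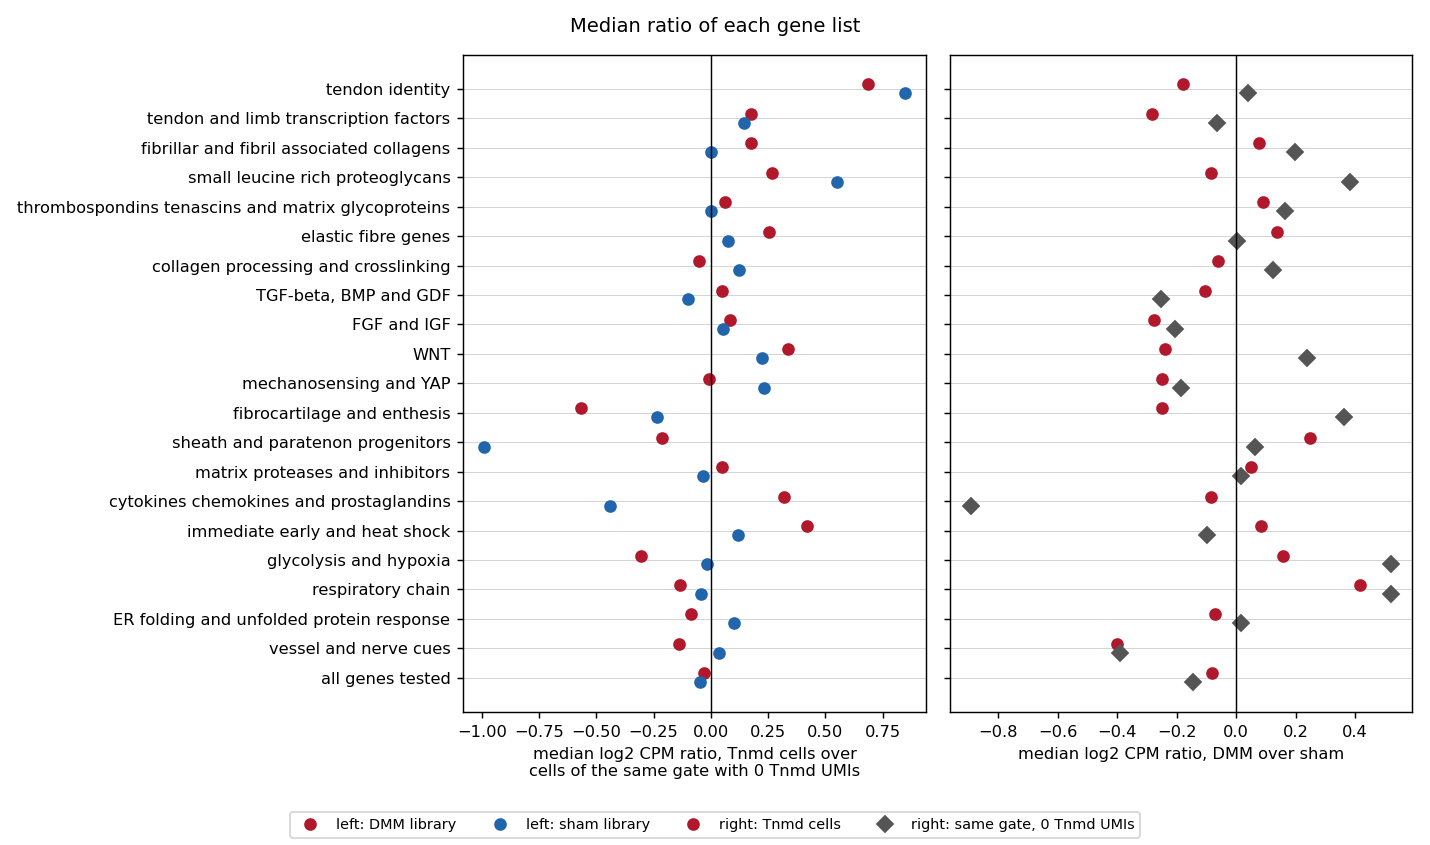
Median log2 CPM ratio of the members of each gene list with enough counts, for Tnmd cells over cells of the same gate with 0 Tnmd UMIs (left) and for DMM over sham (right). Tendon identity lies farthest to the right on the left side, at 0.69 in DMM and 0.85 in sham, and the respiratory chain lies highest on the right side in Tnmd cells, at 0.41. The lists were chosen with earlier results of these data known.

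The ratios of DMM over sham moved with the length of the gene in the genome. Over the 3384 genes, Spearman's rho with gene span was -0.49 in Tnmd cells and -0.62 in the other cells. Genes of at least 100 kb had a median log2 ratio of -0.34 (789 genes) and genes under 10 kb 0.24 (738 genes). Of the lower genes, 38 of 90 spanned at least 100 kb, against 3 of 29 higher ones. Coch (12.4 kb) and Kera (6.81 kb) are short and Mkx (70.3 kb) is of middle length. With the trend taken out, an alternative chosen after seeing the data, Mkx gave -1.94, Coch -4.97 and Kera -1.28. With the trend out 58 genes were at least 2-fold lower, 50 of them among the 90, and 30 higher, 19 of them among the 29. The part of gene length in the ratios of long genes was not tested beyond this.

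Tnmd cells differed among themselves. By variance over mean of UMIs in the smaller of both libraries, the genes ranked highest were Cytl1, Mgp (matrix Gla protein), Gsn (gelsolin), Col3a1, Mmp13 (collagenase 3), Angptl7, Ibsp, Dcn (decorin), Sparc and Fos. This measure tends to rise with the mean and so favours abundant genes. Dcn and Sparc, for example, were found in 100% of cells of both libraries. Mmp13 was found in 20.8% of DMM and 20.0% of sham cells, with up to 11999 CPM in DMM and 9617 CPM in sham, and in 2.52% and 3.49% of haemoglobin cells. Angptl7 was found in 47.7% and 55.2% of cells and reached 17957 CPM in DMM and 18749 CPM in sham. Thbs4 ranged to 24211 CPM in DMM, with a median of 1211, and to 12990 CPM in sham, with a median of 1799, and its lowest value was 0 in both. The per-cell ranges of DMM and sham overlapped for all of these genes.

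**Figure D5:**
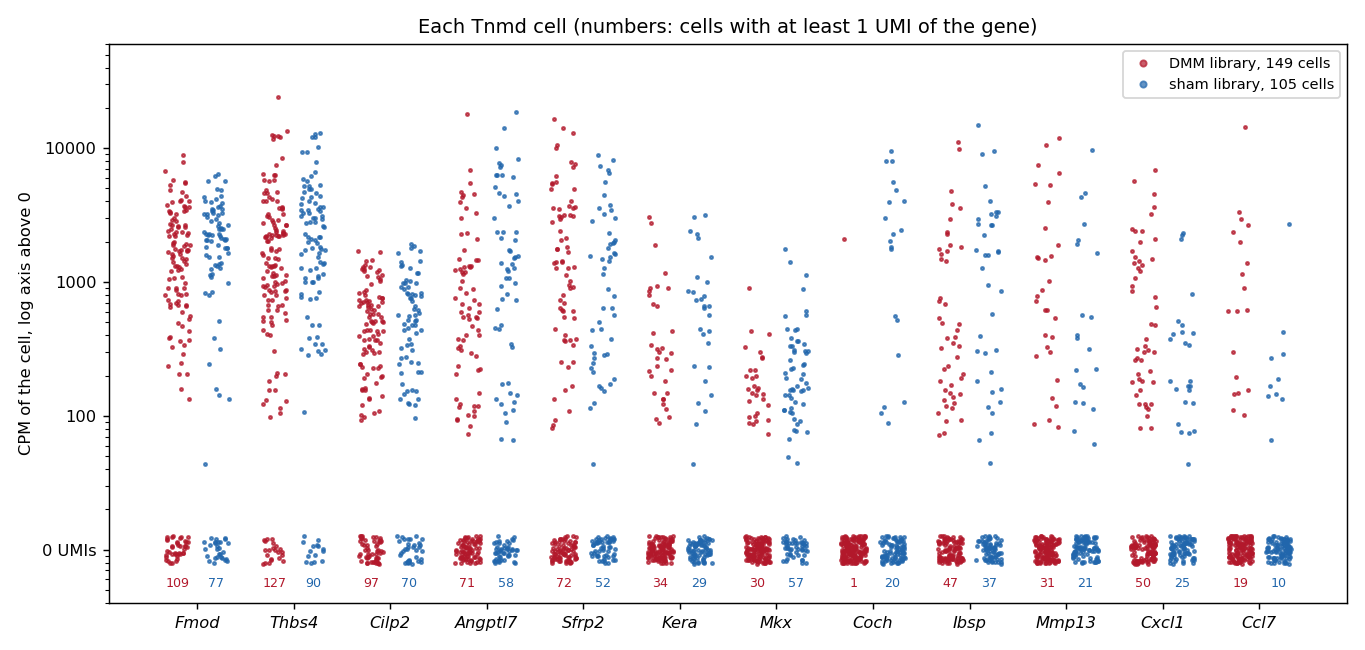
CPM of each Tnmd cell for 12 genes (log axis above 0, with cells at 0 UMIs in a band at the bottom), DMM red and sham blue, with the number of cells holding at least 1 UMI. Fmod and Thbs4 fill most cells of both libraries, Coch has 1 DMM cell and 20 sham cells, and Mkx has 30 and 57.

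Across cells, as a description in which all genes share a cell's total, Fmod, Thbs4 and Cilp2 went together. Fmod and Thbs4 had a Spearman rho of 0.58 over 149 DMM cells and 0.57 over 105 sham cells, and Fmod and Cilp2 0.56 and 0.67. Thbs4 and Angptl7 gave 0.50 and 0.41. Kera was less related to them, at 0.17 and 0.28 with Fmod and -0.06 and 0.24 with Cilp2. Gsn, Cxcl1 and Col3a1 lay at the other end: Fmod and Gsn gave -0.38 and -0.47, Cilp2 and Cxcl1 -0.44 and -0.40, and Cilp2 and Col3a1 -0.22 and -0.68. Cilp2 was carried by 19 of the 50 DMM cells with Cxcl1 and 78 of the 99 without, and by 8 of the 25 sham cells with Cxcl1 and 62 of the 80 without.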

How the data were processed

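Single-cell libraries of sorted mouse knee cells were made with the 10x Genomics 3' kit. The deposited matrices hold raw UMI counts per gene and barcode, made by the authors with Cell Ranger 7.1.0 per the file headers. Seurat, STAR, HTSeq, DESeq2, mm10 and an older Cell Ranger, 3.0.1, appear in the submitters' processing notes, with no step given. The DMM matrix held 11076 barcodes and 97346999 UMIs and the sham matrix 11362 barcodes and 106799078 UMIs. Periosteum and bulk samples were not analysed here, and the 6 columns of the bulk table were not used.

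Counts of the cells in a set were summed and divided by their total to give CPM, in Python 3.11.15 with numpy 2.4.6, pandas 2.3.3, scipy 1.17.1 and scanpy 1.11.5 (for Scrublet), with figures from matplotlib 3.10.9. Log2 ratios carry exact conditional binomial intervals, shares Clopper-Pearson intervals and levels Poisson intervals, all at 95%. A gene at 0 UMIs was set to 3 counts for its bound. The calculation was tested on simulated data. The simulated counts were Poisson draws without spread between cells, so they cannot show how the intervals hold under such spread. Because each group was 1 library, no p-value was computed, and calls are ratios past 2-fold. Haemoglobin cells were barcodes with at least 20% haemoglobin UMIs, and doublets were kept. Gene span came from GENCODE M21 on GRCm38.

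Against the gate, named genes were the 15 highest and 15 lowest by the smaller ratio of both libraries. For DMM over sham they were the 12 highest and 12 lowest among genes that passed further limits. These were at least 100 UMIs in all, at least 100 CPM in the higher library and a counting interval without a ratio of 1. The direction also had to hold under median-of-ratios scaling and without the top cell. To the named genes were added the 10 genes with the highest variance over mean, the tendon genes and leading members of the other 20 gene lists. Ccl2 and Il6 were chosen after their values were seen. The members, lists and rules were chosen with earlier results of these data known. Alternatives varied each limit, the scaling, the depth of cells and the set compared with.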

Additional observations from a re-analysis of the deposited data

Results flagged for a closer look

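Of the genes named for DMM over sham, 4 had log2 ratios of opposite sign in Tnmd cells and in cells of the same gate without Tnmd. Ccl7 gave 1.99 in Tnmd cells and -3.28 in the other cells, and Cxcl1 gave 1.59 and -1.51. Hmcn1, which encodes the extracellular protein hemicentin, gave 1.35 and -0.23, and was found in 48 DMM and 14 sham Tnmd cells. Ndnf gave -1.72 and 0.24. With 1 library per group, these differences between sets of cells were not tested.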

How the results depend on the processing

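Against the other cells of the gate, all 60 ratios of named genes (30 genes in each library) kept their sign under every alternative run. These genes had been chosen for the largest ratios of 1 sign in both libraries, so a kept sign was largely set by the choice. The 67 higher and 56 lower genes became 105 and 106 with a limit of 20 CPM, 40 and 28 with a limit of 100 CPM, and 344 and 314 against all other kept barcodes. For DMM over sham, every gene followed except Kera, Cilp2, Thbs4, Comp and Scx kept its sign under every alternative. The genes named by size had been chosen to keep it with median-of-ratios scaling and without the top cell. The called genes turned over. With at least 1 Tnmd UMI, 11 of the 29 higher and 52 of the 90 lower genes were called again, and with at least 3 Tnmd UMIs 14 and 48. The 29 higher genes became 49 with median-of-ratios scaling, and 18 in Tnmd cells with 0 Ibsp UMIs, chosen after seeing the data. Higher and lower genes became 107 and 186 with cells thinned to 2000 UMIs, 66 and 205 with at least 50 UMIs and 12 and 44 with at least 200 UMIs. The 90 lower genes became 58 with the trend on gene span taken out. With 0 Ibsp UMIs, Kera turned to 0.21, Cilp2 to 0.31 and Thbs4 to 0.012, and with the span trend out Comp turned to -0.078. Scx, within counting error of 0, changed sign with cells weighted equally, with thinning and with the span trend out. The cause was not tested. No paired analysis was possible because each group was 1 library. Of 48 tendon and limb factors, 31 had at least 100 UMIs over both libraries, and spread between mice could not be measured.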

Other observations

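Some further genes set the Tnmd cells apart from the other cells of the gate in both libraries. Myoc, which encodes the secreted protein myocilin, stood at 445 CPM in DMM and 1376 CPM in sham Tnmd cells, against 150 and 409 CPM in the other cells. Epha3, a receptor for ephrins, gave log2 ratios of 1.91 in DMM and 2.39 in sham, and Cpxm2, a carboxypeptidase-like protein, 1.83 and 2.51. Adamtsl1, a secreted relative of the ADAMTS proteases, gave 2.17 and 2.41.

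Osr2, a transcription factor of joint formation, was the 1 factor of 31 tested that was 2-fold higher in DMM (1.14), while Mkx, Eya2, Foxp2 and Hoxa10 were 2-fold lower. Of all genes tested, 0.857% were higher and 2.66% lower.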
